A study of Mus musculus with 13 samples.

Results

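The immediate-early genes Fos, Fosb, Jun, Junb, Jund, Egr1, Atf3, Ier2, Ier3 and Dusp1 were followed across 5 cell populations sorted from the newborn mouse cochlea. They were chosen by name: every probe of the array whose gene symbol was one of the 10 was taken. That gave 9 genes, and Jund was found through its accession because the array's table names it Jund1. Each gene had 1 probe, so the group comprised 10 of 18038 genes on the array. All 10 passed the filter on dim probes, and 9 of them were detected on all 13 arrays (Atf3 was not).

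All cells came from C57BL6 mice aged 3 days that carry the Math1-nGFP reporter, in which Math1 regulatory sequence drives a nuclear green fluorescent protein in hair cells. The dissociated cochlear cells were separated by flow cytometry, and RNA of each sort was amplified, biotin-labelled and hybridised to Illumina BeadChip arrays. CD271high (3 arrays) comprised GFP-negative cells with high CD271, labelled as suspected macrophages. HC (4 arrays) comprised the GFP-positive hair cells. GER (3 arrays), the greater epithelial ridge gate, was GFP-negative, CD271-low, CD146-high and CD326-positive. DC (2 arrays), the gate for Deiters' and Claudius cells, differed from GER in being CD146-low. BM (1 array) held GFP-negative, CD271-low, CD326-negative cells from below the basilar membrane and was described without a test. All groups were sorted cells, and levels in cochlear tissue before isolation were not analysed here. The labels do not say whether the replicate letters mark separate animals or pools, so the p-values measure the spread between these arrays.

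Immediate-early genes are transcribed within minutes of a stimulus, from factors already present in the cell and without new protein synthesis. Growth factors, depolarisation, stress and the enzymatic or mechanical dissociation of a tissue are known triggers. Mitogen-activated protein kinases relay the stimulus to factors bound at the promoters, and many of the products are transcription factors or inhibitors that shut the kinases off again.

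The promoters of 4 of the genes are shown because they represent the AP-1 subunits (Fos, Fosb), the kinase inhibitor (Dusp1) and the gene with the widest span of population means (Ier3). Sequences are RefSeq's for GRCm38.p6, from 250 bases before to 50 bases after the annotated start, written along the strand of the gene. The start used for Fosb lies inside the annotated span of the gene, so that its window begins 177 bases before that span in place of 250. The windows are chr12:85473640-85473939 (plus strand) for Fos, chr7:19309996-19310295 (minus strand) for Fosb, chr17:26508423-26508722 (minus strand) for Dusp1 and chr17:35821463-35821762 (plus strand) for Ier3. Capitals mark matches to TGACG, the core of the cyclic AMP response element, or to its palindrome TGACGTCA.
Fos: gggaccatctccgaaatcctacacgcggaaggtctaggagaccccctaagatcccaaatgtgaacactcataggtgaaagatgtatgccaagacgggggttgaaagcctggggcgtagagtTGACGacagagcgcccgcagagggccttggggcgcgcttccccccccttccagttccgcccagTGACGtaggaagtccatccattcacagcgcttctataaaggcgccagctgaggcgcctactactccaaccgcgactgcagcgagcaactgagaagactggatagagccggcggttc
Fosb: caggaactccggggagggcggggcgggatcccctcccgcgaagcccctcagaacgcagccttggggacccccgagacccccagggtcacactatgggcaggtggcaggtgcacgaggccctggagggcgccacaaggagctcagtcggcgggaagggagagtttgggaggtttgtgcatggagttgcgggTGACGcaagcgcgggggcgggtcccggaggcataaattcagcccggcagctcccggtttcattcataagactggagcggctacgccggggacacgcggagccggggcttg
Dusp1: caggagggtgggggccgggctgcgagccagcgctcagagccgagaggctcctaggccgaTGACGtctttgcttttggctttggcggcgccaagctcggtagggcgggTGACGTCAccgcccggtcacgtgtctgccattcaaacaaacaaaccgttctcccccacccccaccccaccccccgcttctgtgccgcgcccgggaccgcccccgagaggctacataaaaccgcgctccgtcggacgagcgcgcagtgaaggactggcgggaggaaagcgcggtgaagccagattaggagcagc
Ier3: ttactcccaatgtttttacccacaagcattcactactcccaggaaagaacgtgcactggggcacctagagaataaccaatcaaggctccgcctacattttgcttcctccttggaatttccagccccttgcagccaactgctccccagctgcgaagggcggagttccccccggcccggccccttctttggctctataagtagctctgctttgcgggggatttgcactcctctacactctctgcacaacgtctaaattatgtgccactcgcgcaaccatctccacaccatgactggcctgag

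A promoter window was found for 8 of the 10 genes, all but Egr1 and Ier2. TGACG, searched on both strands, occurred in 5 of the 8 (Fos, Fosb, Junb, Atf3 and Dusp1), against 20.8% of the 32851 windows in the table, where a gene can have several. Fos held it at bases -129 to -125 and -66 to -62 from the start, and Fosb at -60 to -56. Dusp1 held the whole palindrome TGACGTCA at -143 to -136, which contains TGACG on both strands, and a separate TGACG at -191 to -187. The palindrome was found in 1 of 8 members and in 1.79% of all windows. The CArG box, which binds serum response factor, was found in 0 of 8 and in 1.63% of all windows, and the AP-1 site TGANTCA in 0 of 8 and in 7.81%. These counts say only which letters stand in these windows.

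On each array 40.2% to 45.2% of probes exceeded background. The labelled identity of the populations was set against marker genes. All 6 hair cell markers were detected on every HC array, where their summed level (the sum of unlogged normalized intensities) was 116044 to 122200, against 6418 to 9669 in GER and 9787 to 9865 in DC. Gfi1 and Pou4f3 were detected on no array of another population and passed the filter on dim probes only through HC. Their detection there was thus partly set by the filter. Of 11 macrophage markers listed 9 were tested, since Ptprc and Itgam did not pass the filter on dim probes. All 9 were detected on every CD271high array, with a summed level of 80211 to 90866. That level was 11921 to 14781 in HC, 547 to 852 in GER and 1075 to 2452 in DC. Some of the 9, such as Cd68 and C1qa, passed the filter only through CD271high, so their detection there was partly set by the filter. Markers of myelinating glia (4 tested) were also high in CD271high, at 52721 to 80408; that gate thus held transcripts of both lists. In HC they ranged from 1592 to 15916, with HC D the highest. The 3 greater epithelial ridge markers separated the gates less, with 39477 to 44331 in HC, 54337 to 60625 in GER and 47587 to 50354 in DC. Of these, Fst averaged 9.06 in GER and 11.18 in DC on the log2 scale, against the GER label. The 4 supporting cell markers summed to 1816 to 2525 in HC, 1215 to 1609 in GER and 4235 to 4847 in DC. The 6 mesenchyme markers summed to 29704 to 33377 in CD271high, 16862 to 25222 in HC, 44919 to 54044 in GER and 41223 to 48381 in DC. The sum was lowest in HC, but the members differed. In HC relative to GER 1 rose (Pdgfra) and 2 fell (Dcn and Lum), or 16.7% and 33.3%, against 18.5% and 24% of all genes. Pdgfra averaged 12.11 in HC, 8.47 in GER, 9.75 in DC and 10.09 in CD271high on the log2 scale. The 5 endothelium markers tested of 6 summed to 954 to 6758 in HC and 576 to 2999 in GER. In DC the sum was 310 to 387, and in CD271high 364 to 634. Relative to DC, 4 rose in HC (Esam, Cldn5, Tek and Pecam1), or 80% against 15.6% of all genes. Relative to GER, 0 passed. Among the HC arrays their mean log2 level was lowest on HC C. The part of other cell types in the results below was not tested, and fewer expressing cells and less RNA per cell cannot be told apart in sorted pools.

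Of the 4 replicated populations, HC had the lowest levels of these genes. Its mean was the lowest of the 4 for all 10, and CD271high had the highest for 8, the exceptions being Jun, highest in DC, and Jund, highest in GER. In limma's F-test across the 4 populations, 6 of 10 passed an adjusted p of 0.05: Fos, Fosb, Jun, Egr1, Ier2 and Ier3. Over all 10088 genes tested, 60.2% passed the same test, so the share among the 10 equals the background. The genes that did not pass were Junb, Jund, Dusp1 and Atf3, with limma adjusted p of 0.0755, 0.079, 0.0535 and 0.115.

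**Figure D1:**
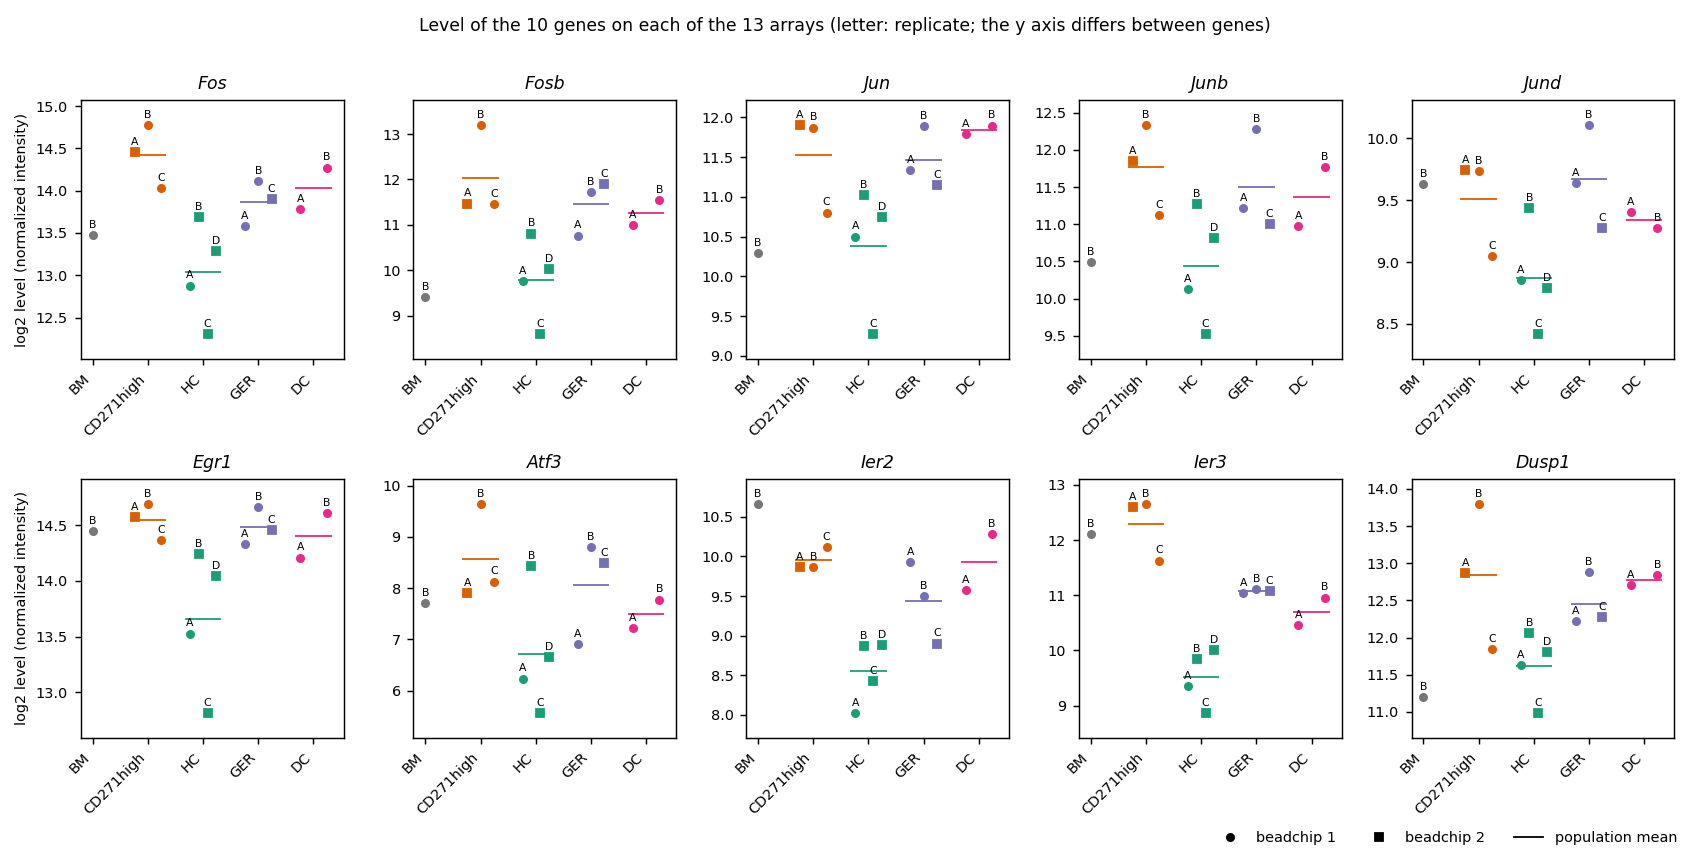
Log2 normalized intensity (y axis, a separate scale for each gene) of the 10 immediate-early genes on each of the 13 arrays, by population (x axis), with the replicate letter above each point, the beadchip as the point's shape and a line at the population mean. HC lies lowest by mean of the replicated populations in every panel, and HC C is the lowest of the 4 HC arrays for 9 genes, the exception being Ier2.

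Fos encodes the founding Fos protein, which pairs with a Jun protein to form the transcription factor AP-1. The gene lies at chr12:85473890-85477274. Its log2 level was 14.45, 14.77 and 14.03 in CD271high A, B and C, against 12.88, 13.68, 12.30 and 13.29 in HC A, B, C and D. It was 13.58, 14.11 and 13.90 in GER A, B and C, and 13.79 and 14.27 in DC A and B. All CD271high and DC arrays lay above all HC arrays, whereas HC B overlapped the lowest GER array. The log2 difference was 1.38 ± 0.30 (SE) for CD271high minus HC, a 2.6-fold higher intensity (limma, adjusted p = 0.00199). For HC minus GER it was -0.83 ± 0.30 (limma, adjusted p = 0.0431) and for HC minus DC -0.99 ± 0.34 (limma, adjusted p = 0.0395). Both of these calls were lost with the beadchip as a block (limma, adjusted p = 0.0569 and 0.071), and HC minus GER was called under 13 of 27 alternative settings, against 26 of 27 for CD271high minus HC.

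Fosb (chr7:19302696-19310118), a second Fos family subunit, spread further. Its log2 level was 11.47, 13.19 and 11.46 in CD271high A, B and C, against 9.77, 10.81, 8.59 and 10.02 in HC A to D. GER A, B and C had 10.76, 11.73 and 11.90, and DC A and B had 10.99 and 11.54. No HC array reached the lowest CD271high or DC array, and HC B passed GER A. CD271high minus HC was 2.25 ± 0.53, or 4.74-fold (limma, adjusted p = 0.00344), and HC minus GER was -1.67 ± 0.53 (limma, adjusted p = 0.0236). The call in HC minus GER was lost without HC C, without GER B or without GER C (limma, adjusted p = 0.054, 0.0755 and 0.086). HC minus DC, -1.47 ± 0.60, missed the threshold (limma, adjusted p = 0.0774).

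Jun (chr4:95049036-95052222) encodes the main partner of Fos in AP-1. On the log2 scale it had 11.90, 11.87 and 10.80 in CD271high A, B and C, against 10.50, 11.02, 9.27 and 10.74 in HC A to D. GER A to C had 11.34, 11.89 and 11.15, and DC A and B had 11.79 and 11.90. HC B lay above CD271high C, while every HC array was below every GER and DC array. The difference was 1.14 ± 0.39 for CD271high minus HC (2.21-fold, limma, adjusted p = 0.0271), -1.08 ± 0.39 for HC minus GER (limma, adjusted p = 0.044) and -1.46 ± 0.45 for HC minus DC (limma, adjusted p = 0.0234). With the beadchip as a block neither HC minus GER nor HC minus DC was called (limma, adjusted p = 0.0753 and 0.0667), and HC minus GER was called under 11 of 27 alternatives. CD271high minus HC was lost without CD271high A or B (limma, adjusted p = 0.104 and 0.101).

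Junb and Jund encode the other Jun subunits, of which Jund is present in resting cells of many tissues and Junb is induced. Junb (chr8:84976909-84978748) had 11.85, 12.33 and 11.12 in CD271high A to C, against 10.13, 11.27, 9.52 and 10.81 in HC A to D. In GER A to C it had 11.22, 12.28 and 11.00, and in DC A and B 10.98 and 11.77. Jund (chr8:70697739-70700616) ranged from 9.05 to 9.75 in CD271high, 8.42 to 9.44 in HC, 9.28 to 10.11 in GER and 9.27 to 9.40 in DC. HC overlapped each of the other 3 populations for both genes. Junb rose in CD271high relative to HC by 1.33 ± 0.45 (limma, adjusted p = 0.0237), and Jund fell in HC relative to GER, at -0.80 ± 0.27 (limma, adjusted p = 0.0302), a call that was lost with the beadchip as a block (limma, adjusted p = 0.0591) and held under 19 of 27 alternatives. The Junb call was lost without HC A, HC C, CD271high A or CD271high B, with limma adjusted p between 0.0567 and 0.104. Jund was the 1 member of 10 that did not pass in CD271high minus HC, at 0.64 ± 0.27 (limma, adjusted p = 0.0617).

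Egr1 (chr18:34861207-34864956) encodes a zinc finger transcription factor, and Atf3 (chr1:191170296-191183333) a stress-induced relative of the AP-1 subunits. Egr1 had log2 levels of 14.57, 14.69 and 14.37 in CD271high A to C, against 13.53, 14.24, 12.82 and 14.04 in HC A to D. It had 14.33, 14.66 and 14.46 in GER A to C and 14.21 and 14.61 in DC A and B. All HC arrays were below all CD271high and GER arrays. CD271high minus HC was 0.89 ± 0.28 (1.85-fold, limma, adjusted p = 0.0195) and HC minus GER was -0.82 ± 0.28 (limma, adjusted p = 0.0351). The call in HC minus GER held under 18 of 27 alternatives and was lost with the beadchip as a block (limma, adjusted p = 0.0523), and that in CD271high minus HC under median scaling, where the difference was 0.70 (limma, adjusted p = 0.0626), and without CD271high A or B (limma, adjusted p = 0.0531 and 0.0665). HC minus DC was -0.75 ± 0.32 (limma, adjusted p = 0.0926).

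Atf3 was the dimmest and most variable member. Its levels were 7.90, 9.64 and 8.13 in CD271high A to C, against 6.23, 8.43, 5.57 and 6.66 in HC A to D. GER A to C had 6.90, 8.79 and 8.48, and DC A and B had 7.22 and 7.78. Among the HC arrays it was above background only on HC B, and among the GER arrays on 2 of 3, so its low values carry little information. CD271high minus HC was 1.84 ± 0.66 (limma, adjusted p = 0.0328), but that size rests on HC values mostly at background. It was 0.89 on the authors' log2 values and 0.90 with no background correction. The call was lost with the beadchip as a block (limma, adjusted p = 0.0502) and without HC A, HC C, HC D or CD271high B (limma, adjusted p from 0.0548 to 0.152). The other comparisons of Atf3 did not pass.

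Ier2 and Ier3 are immediate-early response genes. Ier2 encodes a nuclear protein, and Ier3 a small membrane-associated protein with a role in survival under stress. Ier2 (chr8:84661331-84662852) had 9.87, 9.87 and 10.12 in CD271high A to C, against 8.02, 8.87, 8.42 and 8.88 in HC A to D. GER A to C had 9.93, 9.50 and 8.90, and DC A and B had 9.58 and 10.29. HC lay below every array of the other 3 populations, by a margin of hundredths between HC D and GER C. CD271high minus HC was 1.41 ± 0.28 (2.65-fold, limma, adjusted p = 0.00105), HC minus GER was -0.90 ± 0.28 (limma, adjusted p = 0.0213) and HC minus DC was -1.38 ± 0.32 (limma, adjusted p = 0.00491). The call in HC minus GER was lost without HC A, GER A or GER B (limma, adjusted p from 0.0576 to 0.105), and that in HC minus DC without DC B (limma, adjusted p = 0.0848). HC minus GER was -1.69 on beadchip 1 alone and -0.18 on beadchip 2 alone.

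Ier3 (chr17:35821713-35822911) separated the populations most. It had 12.60, 12.66 and 11.63 in CD271high A to C, against 9.35, 9.83, 8.87 and 10.01 in HC A to D. GER A to C were close together at 11.04, 11.12 and 11.08, and DC A and B had 10.45 and 10.96. No population overlapped another on these 12 arrays. The gap between GER and DC was small, however, and GER minus DC, 0.37 ± 0.36, did not pass (limma, adjusted p = 0.789). CD271high minus HC was 2.78 ± 0.30, a 6.86-fold higher intensity (limma, adjusted p = 8.03e-06). CD271high minus GER was 1.22 ± 0.32 (limma, adjusted p = 0.0132) and CD271high minus DC was 1.59 ± 0.36 (limma, adjusted p = 0.0061). HC minus GER was -1.56 ± 0.30 (limma, adjusted p = 0.00121) and HC minus DC was -1.19 ± 0.34 (limma, adjusted p = 0.0171). For CD271high minus GER the call was lost without CD271high A (1.06, limma, adjusted p = 0.0537) or without CD271high B (1.04, limma, adjusted p = 0.0573), and for CD271high minus DC it was lost without DC A (1.34, limma, adjusted p = 0.0752). HC minus DC was lost without DC B (limma, adjusted p = 0.159).

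Dusp1 (chr17:26505591-26508472) encodes a dual-specificity phosphatase that switches off mitogen-activated protein kinases. It had 12.87, 13.80 and 11.85 in CD271high A to C, against 11.64, 12.07, 10.99 and 11.80 in HC A to D. GER A to C had 12.22, 12.88 and 12.28, and DC A and B had 12.70 and 12.84. HC lay below all GER and DC arrays, but CD271high C lay below HC B. Only CD271high minus HC passed, at 1.21 ± 0.39 (2.32-fold, limma, adjusted p = 0.0191), and it was lost without HC C, CD271high A or CD271high B (limma, adjusted p from 0.0505 to 0.098). HC minus DC was -1.15 ± 0.44 (limma, adjusted p = 0.0623) and HC minus GER -0.84 ± 0.39 (limma, adjusted p = 0.105).

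Counted together, 9 of 10, among them the mostly undetected Atf3, rose in CD271high relative to HC and 0 fell, with a median log2 difference of 1.36. Over all genes 28.3% were higher and 26.7% lower in that comparison, and the median difference was -0.01. HC relative to GER gave 0 higher and 7 lower, with a median of -0.98, against 18.5% higher and 24% lower of all genes and a median of -0.09. The 3 that did not pass in HC minus GER were Junb (-1.06, limma, adjusted p = 0.0749), Atf3 (-1.34, limma, adjusted p = 0.125) and Dusp1. HC relative to DC gave 0 higher and 4 lower (Fos, Jun, Ier2 and Ier3), with a median of -1.07, against 15.6% higher and 20.3% lower and a median of -0.09. These 3 comparisons share the HC arrays, so their counts are not independent of each other. The number of calls in HC minus GER depended on single arrays: it was 2 without HC A, 2 without HC C, 4 without GER A, 1 without GER B and 3 without GER C. In HC minus DC it was 2 without DC A and 0 without DC B, and in CD271high minus HC it was 5 without CD271high A and 4 without CD271high B.

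Among the non-hair-cell populations few differences passed. In GER minus DC limma called 0 of 10 at an adjusted p of 0.05 and 0 at an unadjusted p of 0.05, and the intervals reached from -1.41 (Jun) to 2.28 (Atf3). The background there was 0.892% higher and 3.27% lower. For CD271high minus GER and for CD271high minus DC only Ier3 passed. All genes gave 14.5% higher and 16.1% lower in CD271high minus GER, and 12.2% higher and 12.8% lower in CD271high minus DC. The median of the 10 was 0.10 in GER minus DC, 0.44 in CD271high minus GER and 0.28 in CD271high minus DC, against 0.03, -0.10 and -0.08 over all genes. For Fos, CD271high minus GER was 0.55 with a 95% interval of -0.15 to 1.26, and for Egr1 it was 0.06 with an interval of -0.60 to 0.73.

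**Figure D2:**
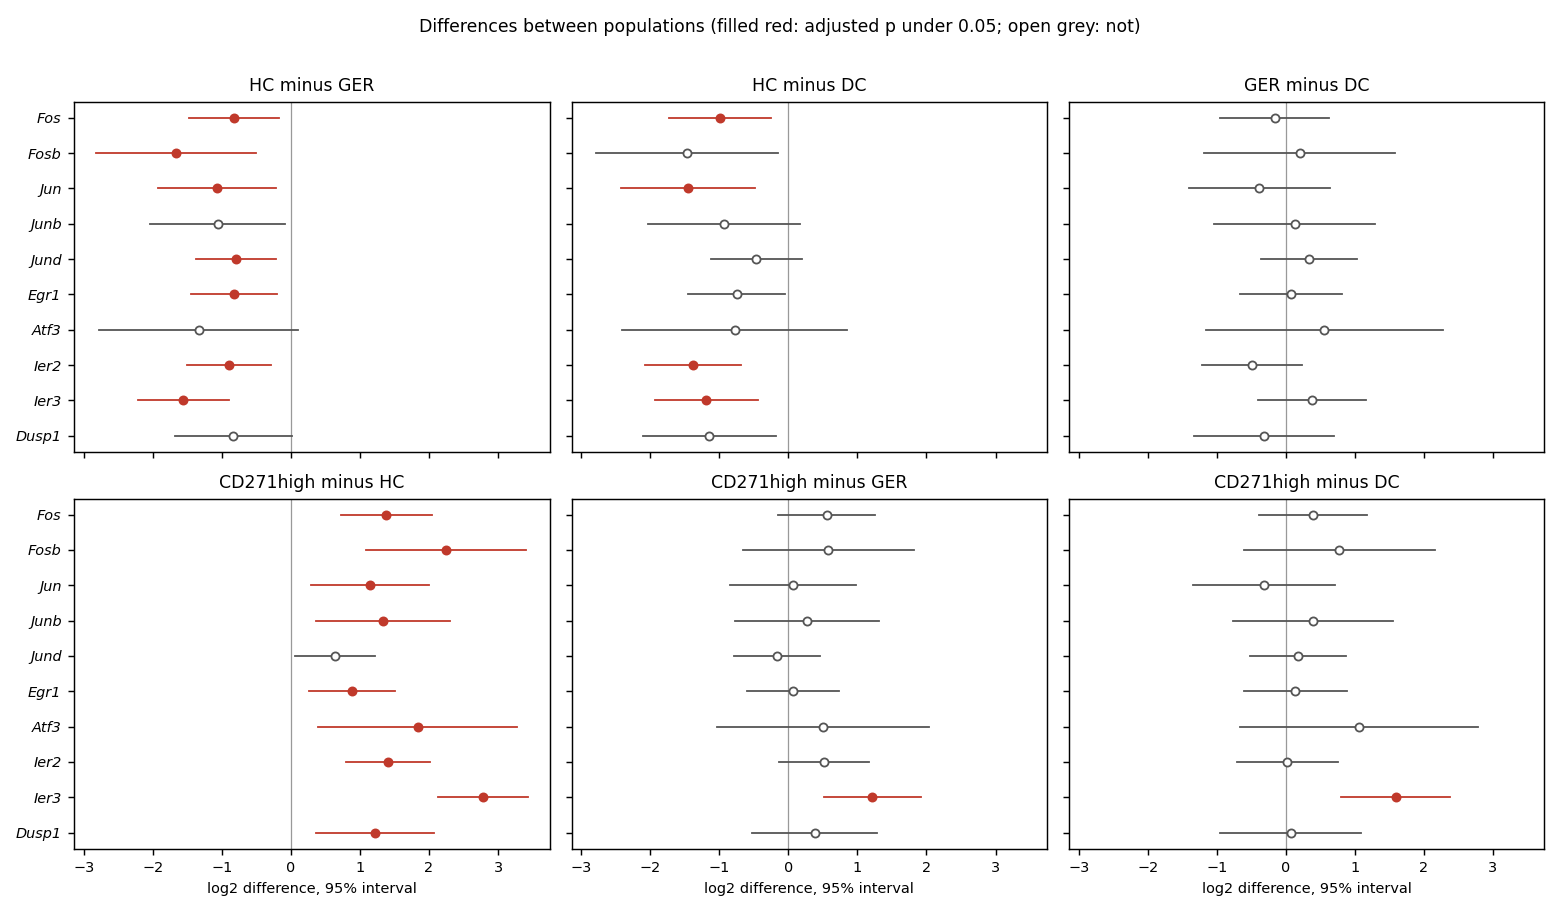
Log2 differences (x axis) with 95% intervals for the 10 genes (y axis) in the 6 pairwise comparisons, filled red where limma's adjusted p was under 0.05 and open grey where it was not. All 10 points lie below 0 in HC minus GER and in HC minus DC and above 0 in CD271high minus HC, and Ier3 is the only filled point in CD271high minus GER and in CD271high minus DC.

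The arrays lay on 2 beadchips, and the direction of the HC comparisons was the same within each. HC minus GER was below 0 for 10 of 10 genes with the beadchip as a block, on beadchip 1 alone and on beadchip 2 alone, where 3, 3 and 0 were called. HC minus DC was below 0 for 10 of 10 with the block and on beadchip 1, with 2 and 1 called, and beadchip 2 held no DC array. CD271high minus HC was above 0 for 10 of 10 in each setting, with 8, 6 and 2 called. The calls lost with the block were Fos, Jun, Jund and Egr1 in HC minus GER, Fos and Jun in HC minus DC, and Atf3 in CD271high minus HC. A single beadchip had 1 array in several groups, which were assumed to vary like the others.

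The genes varied more between replicates than most genes did. The residual standard deviation, the spread of replicates about their population mean on the log2 scale, had a median of 0.519 over the 10 genes and ran from 0.389 (Jund) to 1.03 (Atf3). The median over all genes tested was 0.266. All 10 genes were above that median, at percentiles from 76.4 to 99.7. The standard error of the bead signal of these probes was 3.82% to 9.84% of the signal, with 25 to 67 beads per probe.

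On 3 of 12 arrays all 10 genes lay on the same side of their population mean, and on 5 others 9 of 10 did. All 10 were above their HC mean on HC B, by 0.71 on average, and all 10 were below it on HC C, at -0.78. On HC A 8 were below and on HC D 8 were above. GER B had all 10 above its population mean (0.36 on average) and GER A had 9 below (-0.25). CD271high B had 9 above (0.51) and CD271high C had 9 below (-0.49), while DC B had 9 above (0.21) and DC A 9 below (-0.21). GER C (4 above, 6 below) and CD271high A (7 above, 3 below) were mixed. In every population the mean deviation was below 0 on the arrays lettered A and C and above 0 on those lettered B. On CD271high A, however, it was only -0.02. This is given as a description, since the labels do not say what the letters mark. Of all genes, 45.1% (HC C) to 54.5% (HC D) lay above their population mean on an array. The median deviation of all genes lay between -0.03 and 0.03 on the same 12 arrays. Quantile normalization and centring hold both values near the middle, so they are no test of the shared shifts of the 10. With 1 mean fitted per population the deviations within it sum to 0, so the 2 DC arrays mirror each other by construction.

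**Figure D3:**
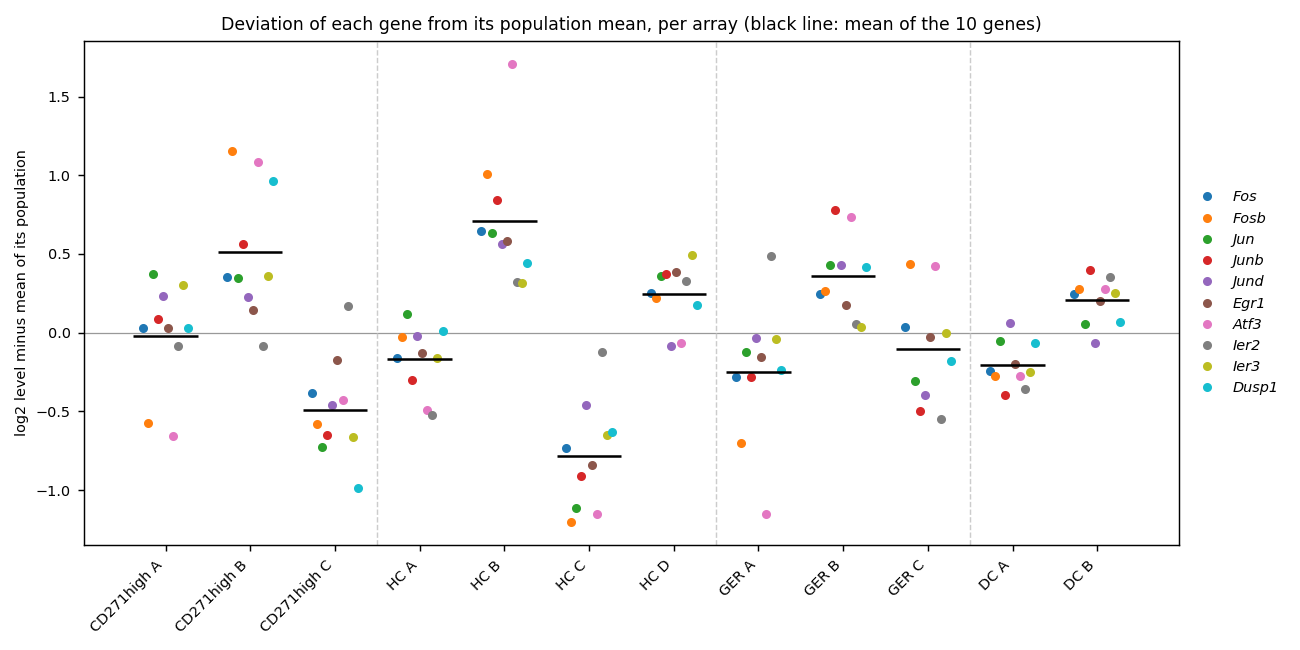
Deviation of each of the 10 genes from its population mean (y axis, log2) on each of the 12 arrays of the replicated populations (x axis), 1 colour per gene, with a black line at the mean of the 10. The points lie all above 0 on HC B and GER B and all below 0 on HC C.

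Pearson's r between the deviations of 2 genes over the 12 arrays had a median of 0.769 across the 45 pairs, and 36 pairs exceeded 0.5. It was highest for Fos with Egr1 (0.951) and lowest for Fosb with Ier2 (0.014). Over all 13 arrays, each gene's level was correlated with the mean of the other 9 at r = 0.983 for Fos, 0.931 for Junb and 0.927 for Egr1, and least for Ier2 (0.592). These values are descriptions, since the genes share the arrays, the RNA and the normalization. Other lists also varied between replicates: endothelial markers deviated from their HC mean by -1.38 on HC C and by 0.37 on HC B, and glial markers by 2.49 on HC D. The macrophage markers deviated by -0.30 on HC C and by 0.04 on HC B. Their part in the spread of the immediate-early genes was not tested.

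The single BM array was high for some genes and low for others. Ier2 was 10.66 in BM, above all 12 other arrays, and Ier3 was 12.10, above 10 of 12. Fosb (9.40), Jun (10.29) and Dusp1 (11.20) were each above only 1 of the 12. Egr1 (14.45), Jund (9.63), Atf3 (7.71), Fos (13.48) and Junb (10.49) lay inside the range of the others. BM minus CD271high was below 0 for 8 of 10, with a median of -0.90, and BM minus HC was above 0 for 7 of 10, with a median of 0.60. There is no replicate of BM and hence no error for these differences.

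The genes whose profile over the 13 arrays was closest to the mean profile of the 10 were ranked by Pearson's r. Zfp36, whose product destabilises AU-rich messages and which is itself an immediate-early gene, came first at 0.908. Myl12a (0.891), a myosin light chain, followed, then Fgf13 (0.888), St3gal1 (0.887), Dennd2c (0.886), Gstk1 (0.885), Socs3 (0.884), an inhibitor of cytokine signalling, and 4930550C14Rik (0.883). Zfp36 averaged 12.98 in CD271high, 10.47 in HC, 11.43 in GER and 11.68 in DC on the log2 scale.

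Of 25 other immediate-early transcription factors listed 17 were tested. In HC relative to GER 10 fell (58.8%, against 24% of all genes) and 0 rose, in HC relative to DC 8 fell (47.1%, against 20.3%) and 0 rose, and in CD271high relative to HC 9 rose (52.9%, against 28.3%) and 2 fell (Hes1 and Egr4). Medians were -0.62, -1.03 and 1.06. Hes1, Id1, Id2 and Id3 were among those that fell in both HC comparisons, at -1.45, -1.25, -1.06 and -1.08 in HC minus DC. None of them rose in CD271high relative to HC. The others that fell in HC minus DC were Nfil3, Irf1, Klf6 and Nr4a2. Whether Hes1 and the Id genes fell as part of the same response as the others was not tested. Egr2, a relative of Egr1, averaged 12.01 in CD271high, 8.34 in HC, 9.99 in GER and 9.45 in DC, and rose by 3.67 in CD271high relative to HC (limma, adjusted p = 0.000274). Klf2, a Krüppel-like factor, rose by 2.04 (limma, adjusted p = 0.00347). Nfil3, a basic leucine zipper repressor, differed most in HC minus GER, at -2.20 (limma, adjusted p = 6.31e-05). Hes1, a Notch target, was lower in CD271high than in HC, at -0.96 (limma, adjusted p = 0.00125), the direction opposite to the 9 that rose.

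Of 19 listed partners and relatives of AP-1 7 were tested, and 2 rose in CD271high relative to HC, a share of 28.6% that is near the background of 28.3%. They were Jdp2, a repressor that dimerises with Jun, by 1.64 (limma, adjusted p = 1.6e-05) and Atf2 by 0.55 (limma, adjusted p = 0.0188). Both fell in HC relative to GER (28.6%, against 24% of all genes), with Jdp2 at -1.20 and Atf2 at -0.49. The list's median in CD271high minus HC was 0.08.

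Of 32 feedback inhibitors listed 24 were tested. In HC relative to GER 5 rose (Dusp14, Btg2, Dusp8, Trib1 and Gadd45g), or 20.8% against 18.5% of all genes, and 7 fell, or 29.2% against 24%, shares near the background. In CD271high relative to HC 11 rose (45.8%, against 28.3%) and 5 fell (Dusp14, Btg2, Dusp8, Trib1 and Gadd45a, 20.8% against 26.7%). Of the 11, Rgs1, Dusp4 and Rgs2 were above background on no HC, GER or DC array and passed the filter only through CD271high. Zfp36 and Socs3 rose in CD271high relative to HC by 2.51 (limma, adjusted p = 7.57e-05) and 2.02 (limma, adjusted p = 0.00371). Dusp14, a phosphatase of the Dusp1 family, was lower by contrast, at -2.72 (limma, adjusted p = 1.18e-06). Btg2, an antiproliferative immediate-early gene, was not above background on any CD271high array and was at least 3.53-fold lower in CD271high than in HC (limma, adjusted p = 0.000184).

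Kinases and factors upstream, 21 tested of 26, gave 11 higher (52.4%, against 28.3% of all genes) and 0 lower in CD271high relative to HC, with a median of 0.55. HC relative to GER gave 5 lower (Map3k8, Mapkapk2, Mapk13, Map3k1 and Map2k3) and 3 higher (Elk3, Mapk12 and Mapk11), or 23.8% and 14.3%, against 24% and 18.5% of all genes. HC relative to DC gave 8 lower (38.1%, against 20.3%) and 2 higher (Mapk12 and Mapk11, 9.52% against 15.6%), with a median of -0.42. Map3k8 was above background on no HC, GER or DC array, so its falls in HC compare values at background. Mapk11 was above background on 2 HC arrays and on no GER or DC array. Map3k8, a kinase that feeds the ERK pathway, passed the filter only through CD271high and was at least 2.49-fold higher there than in HC (limma, adjusted p = 1.64e-08). Mapkapk2, a kinase downstream of p38, rose by 1.62 (limma, adjusted p = 8.64e-06).

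Heat shock genes are also induced by stress, and all 16 on the array of 17 listed were tested. In CD271high relative to HC 4 rose (Hspb1, Hspa1a, Bag3 and Hspb8) and 3 fell (Hsp90aa1, Hsph1 and Hsp90ab1), with a median of -0.14. These shares of 25% and 18.8% stood beside 28.3% and 26.7% of all genes, so they say nothing particular of the list. Hsph1, a co-chaperone of Hsp70, averaged 12.83 in HC and 11.29 in GER, and HC minus GER was 1.54 (limma, adjusted p = 4.95e-06). Bag3, another co-chaperone, went the other way, with 11.49 in HC and 13.02 in GER and a difference of -1.53 (limma, adjusted p = 1.25e-06).

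Of the lists, secreted and late products gave the most calls in CD271high relative to HC. Of 30 listed 21 were tested, and in CD271high relative to HC 17 rose (81%, against 28.3% of all genes) and 2 fell (Homer1 and Tnfrsf12a), with a median of 1.97. Ccl4, Ccl3, Plau, Cxcl1, Hmox1, Ccl2, Tnf, Il1b and Cxcl2 passed the filter on dim probes only through CD271high, where they were high. The share and the median of this list were thus partly set by the filter. The chemokine genes Ccl4, Ccl3 and Cxcl1 and the protease gene Plau were above background on all CD271high arrays and on no HC, GER or DC array. Against HC they were at least 33.7-fold (Ccl4), 20.8-fold (Ccl3), 9.15-fold (Cxcl1) and 9.46-fold (Plau) higher. Each bound sets the CD271high mean against the mean over the HC arrays of the lowest signal above background, or of the probe's own signal where that was higher. These genes are also expressed by activated macrophages, and the macrophage markers given above moved with them. The part of cell type in these differences was not tested. In HC relative to GER 7 of this list fell (33.3%, against 24% of all genes) and 1 rose (Homer1, 4.76% against 18.5%). Among those that fell were Arc, a synaptic immediate-early gene, at -2.03 (limma, adjusted p = 0.0123) and Ccn2, a secreted matricellular protein, at -2.02 (limma, adjusted p = 1.57e-07).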

How the data were processed

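Per the file headers, the scanner table the authors deposited held the mean bead intensity of 25697 probes on 13 arrays, not normalized between arrays, with a detection p-value, the bead standard error of the signal and the bead count of each probe. The authors also deposited quantile-normalized log2 values with a median of 8.143, used as an alternative. The scanner software is not given in the sources used here. Groups came from the titles (the description of GER C carries the letter A, and the title was followed).

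Background correction (normexp, estimated from the detection p-values, offset 16), quantile normalization and the log2 step were done with neqc of limma 3.58.1 in R 4.3.3. Probes were named through the GRCm38.p6 gene table by accession or Entrez ID (24358 matched). A probe stayed if 2 or more arrays had its detection p below 0.01 (13192 did), and the probe with the highest mean represented a gene, which left 10088 genes. One limma fit held a mean per population (8 residual and 3.7 prior degrees of freedom), with 6 pairwise comparisons and an F-test over HC, GER, DC and CD271high. All tests were two-sided, and p-values were adjusted over all genes by the Benjamini-Hochberg method (threshold 0.05). BM was not tested. The number of arrays limits the precision. The script was tested on simulated data.

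The genes and lists were chosen with earlier results of these data known. Named beside the 10 genes were up to 4 genes per list with the largest span of population means among those past the F-test, the 8 with the highest r to the mean profile, and every gene of a count of 5 or fewer. Exceptions named after seeing values were Arc and Ccn2. The 27 alternatives covered background correction, scaling, the filter, probe choice, the beadchip, the replicate letter and each array left out.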

Additional observations from a re-analysis of the deposited data

How the results depend on the processing

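The 10 genes gave 60 pairwise differences, which were recomputed under 27 alternatives (1590 values, since beadchip 2 held no DC array). No called difference reversed, 1447 values kept their side of the threshold, 110 lost the call and 33 gained it. Most of the 1447 were of differences not called at first, whereas only called ones can lose the call. Each difference was recomputed 26 or 27 times. The losses were 57 in HC minus GER (7 genes called), 19 in HC minus DC (4 called) and 29 in CD271high minus HC (9 called). The others were of Ier3, with 4 in CD271high minus GER and 1 in CD271high minus DC. In HC minus GER, HC minus DC and CD271high minus HC no value changed sign, and the 34 sign changes elsewhere were all of uncalled differences. Ier2 and Ier3 were called in CD271high minus HC under 27 of 27 alternatives, and Fos and Fosb under 26 of 27. In HC minus GER, Ier3 was called under 26 of 27 and Jun under 11 of 27.

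The number of genes called moved by over 1.5 times in some settings, and the cause was not tested. HC minus DC, with 4 calls, gave 7 with the authors' log2 values and 7 with no background correction. HC minus GER, with 7 calls, gave 4 with no filter on dim probes. With the beadchip as a block HC minus GER gave 3 and HC minus DC gave 2. On beadchip 1 alone the F-test gave 2 of 10 in place of 6, HC minus GER 3, HC minus DC 1 and CD271high minus GER 0 in place of 1. On beadchip 2 alone HC minus GER gave 0, CD271high minus HC 2 in place of 9 and CD271high minus GER 0. These fits use fewer arrays. Leaving out 1 array at a time gave 1 to 9 calls in HC minus GER, 0 to 6 in HC minus DC, 4 to 10 in CD271high minus HC, 0 to 1 in CD271high minus GER, 0 to 1 in CD271high minus DC and 4 to 9 in the F-test. A lone remaining DC array was assumed to vary like the other groups. The lowest count came without GER B in HC minus GER, without DC B in HC minus DC, without CD271high B in CD271high minus HC, without CD271high A or B in CD271high minus GER, and without DC A in CD271high minus DC.

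The replicate letters were not taken to pair the arrays, since the labels do not say what they mark. The correlation over all genes of same-lettered deviations lay between -0.126 and 0.183 over 15 pairs, with 4 above 0.1. Deviations centred within so few arrays cannot show whether the letters pair the arrays. For the 10 genes the mean deviation had the same sign within a letter in every population that has it. On CD271high A it was only -0.02, with 7 genes above and 3 below. This too is a description and does not show pairing. With the letter as a replicate block the F-test gave 10 of 10 and CD271high minus DC gave 2. In that setting 7 differences gained the call and 53 kept their side of the threshold.

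Signal over background limits Atf3, which was detected on 9 of 13 arrays and on 1 of 4 HC arrays.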
